A study of Mus musculus with 12 samples.

Results

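The genes described here are 10 that pigment cells use to make melanin and to build the melanosome, the organelle in which melanin is made: Tyr, Tyrp1, Dct, Pmel, Mlana, Slc45a2, Oca2, Slc24a5, Gpr143 and Trpm1. They were taken by symbol from a deposited table of 54532 genes, where each symbol matched 1 row, and all 10 passed the filter on low counts. Their RNA was measured in 12 libraries from tumours of B16F10, a pigmented mouse melanoma line, of which 1000 wild-type cells in Matrigel were placed intradermally in each leg of male mice. The hosts of the 6 Ctrl libraries were Trex1 wt/fl-R26CreERT2-ki/wt and those of the 6 iKO libraries Trex1 fl/fl-R26CreERT2-ki/wt, so every host carried the tamoxifen-activated Cre, and hosts of both groups were 8 to 12 weeks old. Tamoxifen (1 mg on each of 3 days, beginning on day 5) was given to both groups, and tumours were harvested on day 14. The implanted cells were not Trex1-deleted, so the comparison concerns the host. Trex1 encodes an exonuclease that degrades cytosolic DNA, and both of its copies were floxed in iKO hosts and 1 copy in Ctrl hosts. Cells were sorted against the leukocyte marker CD45 and the endothelial marker CD31; the cell type label says negative for both, the protocol for either.

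Melanin is made from tyrosine in steps carried out by tyrosinase (Tyr) and the related enzymes encoded by Dct and Tyrp1. The enzymes work inside the melanosome, on fibrils formed by the protein that Pmel encodes, and transporters and channels set the ions and pH of the organelle. In pigment cells the transcription factor MITF, which binds short DNA words such as CATGTG, drives many of these genes, and melanoma cells can raise or lower the whole programme.

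Because the members are studied together as a pigment programme, the stretches of their promoters that hold this word are printed first. RefSeq promoter sequences (GRCm38.p6, the assembly that mm10 names) were at hand for 6 of the 10 genes, and all 6 held CATGTG or its reverse complement CACATG within 250 bases before the annotated start. Over all 32851 promoters of the table, 12.3% held the word on either strand. The longer word TCATGTG, which contains the shorter one, was found on either strand for 5 of the 6 genes (all but Oca2) and in 3.25% of all promoters. Each sequence below runs 5′ to 3′ on the strand of its gene, with the 6-letter word in capitals and up to 30 bases on each side within the 250. A match in these windows is a description of the letters, not of binding.
Tyr, chr7:87493513-87493563, minus strand, word beginning 21 bases before the start: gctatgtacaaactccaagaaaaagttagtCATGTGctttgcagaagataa
Tyrp1, chr4:80834137-80834202, plus strand, 46 bases before the start: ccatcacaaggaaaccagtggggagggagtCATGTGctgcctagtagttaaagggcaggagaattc
Dct, chr14:118052361-118052426, minus strand, 150 bases before the start: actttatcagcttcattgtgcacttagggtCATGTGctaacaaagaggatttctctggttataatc
Trpm1, chr7:64153664-64153729, plus strand, 141 bases before the first of its starts in the table: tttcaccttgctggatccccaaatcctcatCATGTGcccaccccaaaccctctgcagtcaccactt
Slc24a5, chr2:125068084-125068126, plus strand, 13 bases before the start: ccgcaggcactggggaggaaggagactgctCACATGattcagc
Oca2, chr7:56239543-56239608, plus strand, 186 bases before the start: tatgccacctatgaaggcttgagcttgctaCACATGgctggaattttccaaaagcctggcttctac

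Tyr, Tyrp1, Dct and Trpm1 carry the word as TCATGTG in the orientation of the gene, and Slc24a5 carries it on the other strand. Dct has a further CACATG 232 bases before its start, and the other Trpm1 promoter in the table has none. For Tyrp1 the RefSeq start (80834213) lies downstream of the start of the deposited gene model (80834123). The Tyrp1 window is thus before the RefSeq start but inside that gene model.

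The libraries held 29.8 to 45.8 M counts. Trex1 itself had 0 counts in all 12, so the genotypes could not be checked from it. By sampling alone, 0 counts allow up to 0.0655 to 0.101 CPM (counts scaled to library size) depending on the library. That bound holds only if reads of Trex1 could be assigned to it, which was not tested. Ptprc, the gene of CD45, stood at 0.159 to 1.54 CPM in 5 Ctrl libraries and 15.5 in Ctrl 5, and at 159 to 341 CPM in 5 iKO libraries and 18.0 in iKO 1. Pecam1, the gene of CD31, stood at 3.07 to 5.05 CPM in Ctrl and 4.01 to 14.3 in iKO. Ctrl 5 and iKO 1 therefore stood apart from their groups. The number of members called is given below without both, and the changes of some genes, not all, without 1 or both. In iKO 2 and iKO 3 the sex-linked transcripts went against the label male: Xist was at 219 and 117 CPM, against at most 8.29 in any other library. The 4 Y-linked genes looked at summed to 44 and 0 counts there, to 107 to 254 in Ctrl and iKO 1, and to 1298 to 1513 in iKO 4, 5 and 6. Which mouse each library came from is not labelled, and since both legs were injected, libraries may share a host; the p-values reflect variation among libraries, some of which may be technical.

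RNA of pigment cells was abundant in all 12 libraries. Together the 10 genes held 2.21% to 2.28% of all counts in Ctrl and 1.497% to 2.29% in iKO, and Dct, Tyrp1 and Pmel ranked 2, 5 and 12 among all genes by total count. Dct, Tyrp1 and Pmel made up 84.0% to 86.7% of the counts of the 10 genes in each library. The mean share of all counts was 2.24% ± 0.0289 in Ctrl and 1.75% ± 0.280 in iKO (SD, n = 6 each). The iKO libraries were far more spread than the Ctrl libraries: iKO 1 (2.287%) lay just above the highest Ctrl library (2.284%), and the other 5 iKO libraries (1.497% to 1.78%) lay below every Ctrl library.

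Most of the 10 genes were lower in iKO. At an adjusted p under 0.05 (edgeR quasi-likelihood test, Benjamini-Hochberg over 16164 genes), 7 of the 10 fell and 0 rose, while 21.4% of all tested genes fell and 25% rose. At an unadjusted p under 0.05, 8 were lower and 0 higher in edgeR, and DESeq2 and limma voom also called 0 higher. The share of all tested genes at that unadjusted threshold was not computed. With the leukocyte value described below as a covariate, 0 of the 10 had a call. That fit called 1049 of the 16164 tested genes lower and 973 higher, against 3464 and 4037 without the covariate. Without the covariate, the 3 members that had no call were Pmel, Oca2 and Gpr143, at unadjusted edgeR p of 0.750, 0.300 and 0.0256. Among the 6096 tested genes with a mean level at or above that of the lowest member, 34.6% fell. The median log2 fold change (iKO against Ctrl) was -0.37 over the 10 genes, 0.023 over all tested genes and -0.05 over those 6096. The falls were moderate, from 0.728 to 0.828 of the Ctrl level. In bulk RNA, fewer pigment cells in a sample and less of these transcripts per pigment cell cannot be told apart.

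**Figure D1:**
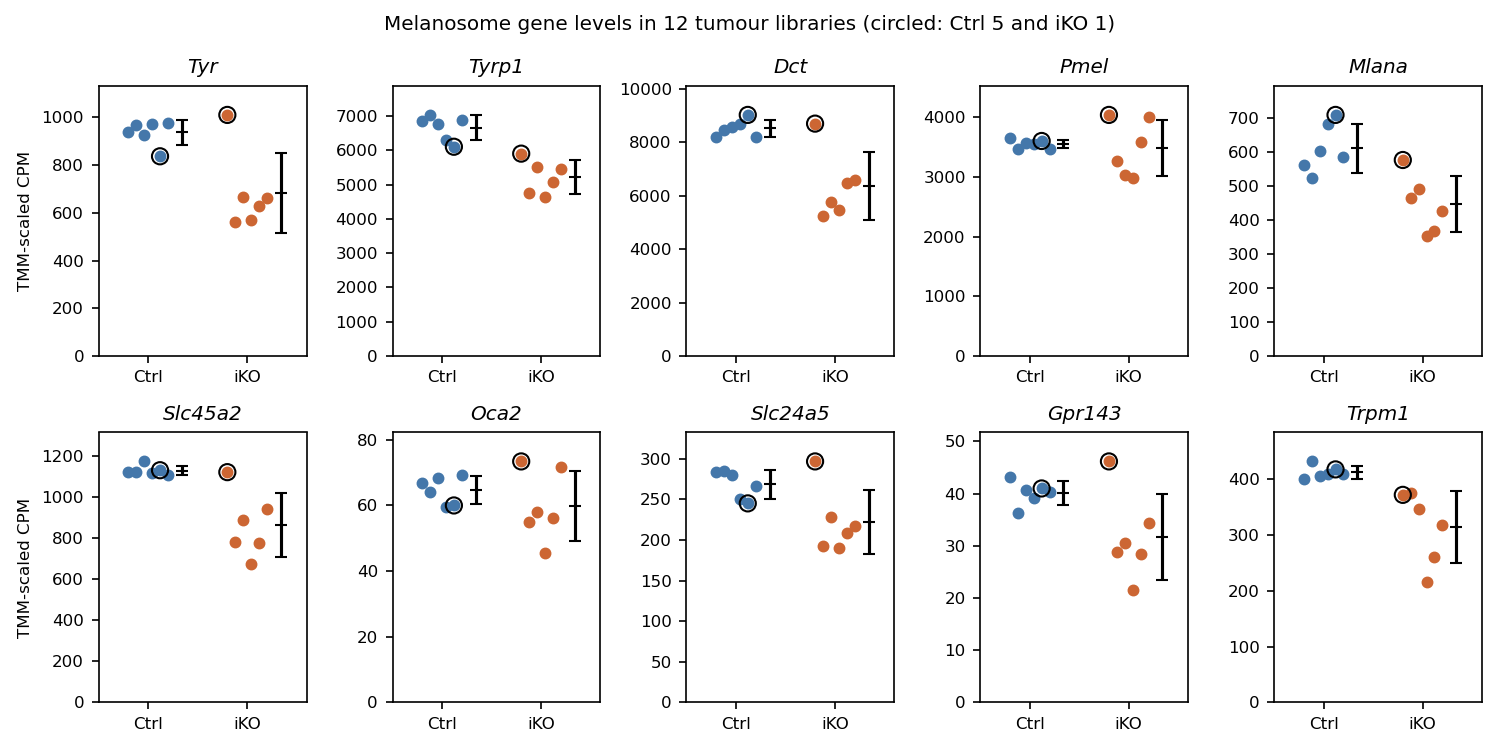
TMM-scaled CPM (y axes, from 0) of each of the 10 genes in the 6 Ctrl and 6 iKO libraries; each point is 1 library in the order of its replicate number, bars are mean ± SD, and circles mark Ctrl 5 and iKO 1. For Tyr, Dct, Slc45a2 and Slc24a5, iKO 1 lies within or above the Ctrl points and the other 5 iKO libraries lie below them.

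The 3 enzymes of melanin synthesis fell together. Tyr (ENSMUSG00000004651, mm10 chromosome 7, 87424771 to 87493512, minus strand), the rate-limiting enzyme, had a lowest, median and highest level of 837, 955 and 977 CPM in Ctrl and 559.6, 645 and 1011 CPM in iKO (CPM scaled by TMM, edgeR's factors for library composition, here and for each gene below). The highest iKO value was that of iKO 1, above every Ctrl library, and the other 5 iKO libraries were below every Ctrl library. The mean went from 937 ± 53.1 to 682 ± 167 CPM (SD over 6 libraries), which edgeR fitted as -0.46 ± 0.12 on the log2 scale (SE; adjusted p = 0.00765). Without iKO 1 the change was -0.61 (edgeR adjusted p = 6.07e-06).

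Dct (ENSMUSG00000022129, chromosome 14, 118012790 to 118052244, minus strand) encodes dopachrome tautomerase, which acts after tyrosinase. Its lowest, median and highest level was 8213, 8518 and 9031 CPM in Ctrl and 5243, 6116 and 8705 CPM in iKO. Again iKO 1 lay inside the Ctrl range, with the other 5 iKO libraries at 5243 to 6582 CPM, below every Ctrl library. On the log2 scale Dct changed by -0.42 ± 0.11 (SE, edgeR adjusted p = 0.00525), and -0.53 without iKO 1.

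Tyrp1 (ENSMUSG00000005994, chromosome 4, 80834123 to 80851719, plus strand) encodes a melanosomal protein related to tyrosinase. It ranged from 6105 to 7034 CPM in Ctrl, with a median of 6802, and from 4625 to 5904 CPM in iKO, with a median of 5263. The groups did not overlap, even with iKO 1, which was the highest of the iKO libraries. Its change of -0.35 ± 0.071 on the log2 scale (SE, edgeR adjusted p = 0.00135) had the smallest p of the 10 genes. Tyrp1 and Trpm1 were the 2 of the 10 genes whose groups did not overlap with iKO lower, a pattern shown by 11.1% of all tested genes.

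Pmel (ENSMUSG00000025359, chromosome 10, 128704195 to 128720238, plus strand), whose product forms the fibrils on which melanin is laid down, did not follow the enzymes. Its lowest, median and highest level was 3467, 3559 and 3645 CPM in Ctrl and 2987, 3424 and 4038 CPM in iKO. The iKO libraries lay on both sides of the Ctrl range: iKO 2, 3 and 4 were below every Ctrl library, iKO 1 and iKO 6 above every one, and iKO 5 within it. Its fitted log2 fold change of -0.026 ± 0.080 (SE, edgeR adjusted p = 0.811) had no stable sign, running from -0.075 to 0.015 with 1 library left out (above 0 without Ctrl 5, iKO 3 or iKO 4). Of Pmel exon bases 6.06% are shared with Cdk2 or Dgka on the other strand, and the libraries did not keep strand.

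Mlana (ENSMUSG00000024806, chromosome 19, 29697921 to 29708448, plus strand) encodes MART-1, a melanosomal membrane protein and a known T cell antigen in melanoma. It ranged from 524 to 710.0 CPM in Ctrl, with a median of 594.5, and from 353 to 577 CPM in iKO, with a median of 447. Here iKO 1 lay among the lower Ctrl libraries. Mlana fell by 0.45 ± 0.12 on the log2 scale (SE, edgeR adjusted p = 0.00577), and the 5 iKO libraries other than iKO 1 were below every Ctrl library.

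Among the transporters, Slc45a2 fell most clearly. Slc45a2 (ENSMUSG00000022243, chromosome 15, 11000721 to 11029233, plus strand), a sugar and proton transporter family member that sets melanosome pH, was at 1104, 1121 and 1173 CPM (lowest, median, highest) in Ctrl and at 675, 834 and 1121 CPM in iKO. The Ctrl libraries lay close together and iKO 1 lay within them, with the other 5 iKO libraries below. The fitted change was -0.39 ± 0.098 on the log2 scale (SE, edgeR adjusted p = 0.00562).

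Slc24a5 (ENSMUSG00000035183, chromosome 2, 125068124 to 125088677, plus strand), a sodium, potassium and calcium exchanger, was at 245, 274 and 285 CPM in Ctrl and at 189.8, 213 and 297 CPM in iKO. The highest value was that of iKO 1. A log2 fold change of -0.27 ± 0.097 (SE, edgeR adjusted p = 0.0325) did not keep its call when any 1 of Ctrl 1 to 6 or iKO 2, 4, 5 or 6 was left out (-0.23 to -0.28, adjusted p from 0.0524 to 0.0967), and was -0.37 without iKO 1 (adjusted p = 0.000371). Of Slc24a5 exon bases 39.5% are shared with Myef2 on the other strand, and Myef2 fell by 0.24 on the log2 scale (edgeR adjusted p = 0.00323), so part of the reads counted for either gene could belong to the other.

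Oca2 (ENSMUSG00000030450, chromosome 7, 56239760 to 56536518, plus strand), which is needed for the chloride current of the melanosome, was low. It ranged from 59.4 to 69.2 CPM in Ctrl, with a median of 65.5, and from 45.6 to 73.4 CPM in iKO, with a median of 57.0. As for Pmel, iKO 1 (73.4) and iKO 6 (71.7) were above every Ctrl library and 4 iKO libraries below. For Oca2 the log2 fold change was -0.11 ± 0.10 (SE, edgeR adjusted p = 0.400), and -0.042 to -0.18 with 1 library left out (without iKO 4 and without iKO 1).

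Gpr143 (ENSMUSG00000025333, chromosome X, 152781921 to 152808646, plus strand) encodes a receptor in the melanosome membrane that bears on melanosome number and size. It was at 36.3, 40.5 and 43.2 CPM in Ctrl and at 21.5, 29.7 and 46.2 CPM in iKO. Only iKO 1 was above the Ctrl range and the other 5 iKO libraries were below it. Its log2 fold change of -0.34 ± 0.14 (SE) missed the threshold (edgeR adjusted p = 0.0541). It was -0.48 without iKO 1 (edgeR adjusted p = 0.00115).

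Trpm1 (ENSMUSG00000030523, chromosome 7, 64153835 to 64269775, plus strand), a cation channel of melanocytes and of bipolar cells of the retina, ranged from 400.1 to 432 CPM in Ctrl, with a median of 409.5, and from 216 to 376 CPM in iKO, with a median of 333. The groups did not overlap. The highest iKO libraries were iKO 2 (376) and iKO 1 (372), and the lowest was iKO 4. Trpm1 changed by -0.39 ± 0.12 on the log2 scale (SE, edgeR adjusted p = 0.0129).

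The iKO libraries differed in how far the programme was lowered. All 10 genes were below every Ctrl library in iKO 2, 3 and 4, as were 9 in iKO 5 and 8 in iKO 6. In iKO 1 only Tyrp1 and Trpm1 were below every Ctrl library and 5 genes were above every one. The share of all tested genes below or above every Ctrl library in a single iKO library was not computed. These counts therefore have no background to be read against. The median over the 10 genes of the log2 ratio to the Ctrl mean reached -0.68 in iKO 4 and was 0.069 in iKO 1. It lay between -0.48 (iKO 2) and -0.295 (iKO 3) for the rest. Mlana and Trpm1 were lowest in iKO 4 and iKO 5, whereas Tyr and Dct were lowest in iKO 2. Left out together, Ctrl 5 and iKO 1 raised the number of members that fell to 8, Gpr143 being added. Without iKO 2 and iKO 3 it was 6, with Slc24a5 no longer called.

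**Figure D2:**
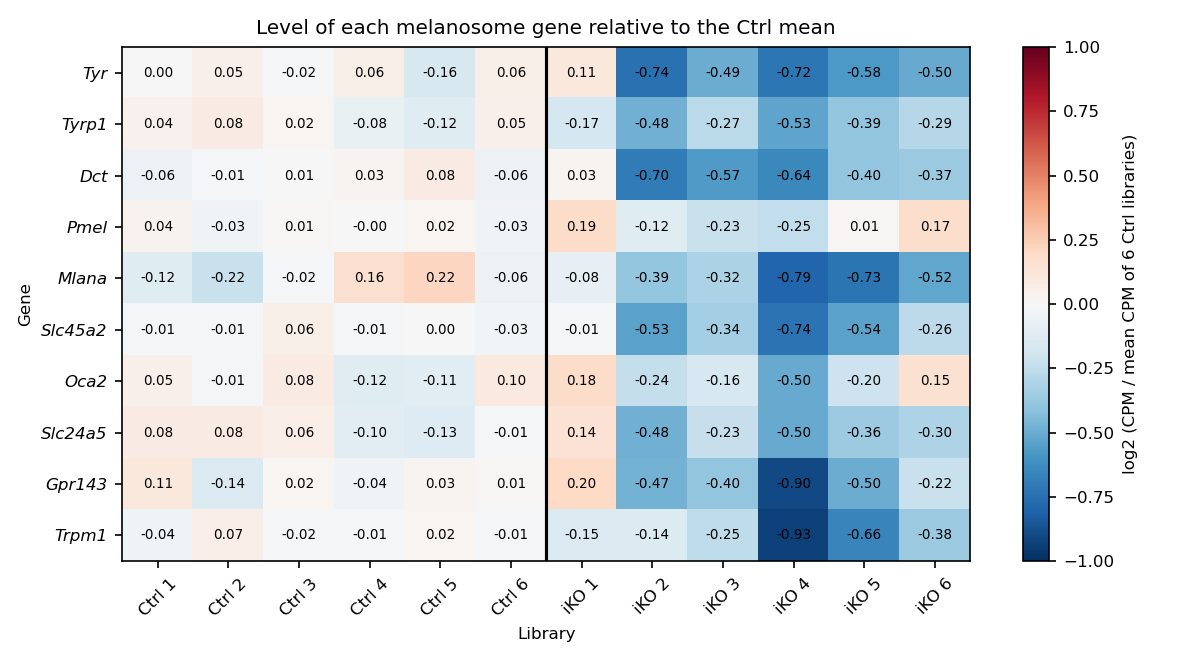
Log2 ratio of the TMM-scaled CPM of each gene (rows) to its mean over the 6 Ctrl libraries, for each of the 12 libraries (columns); blue is below and red above the Ctrl mean. The iKO 1 column lies between -0.17 and 0.20, that of iKO 4 between -0.93 and -0.25, and the Pmel row stays nearest to 0.

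Leukocyte RNA differed between the same libraries. On the mean log2 CPM of 10 leukocyte genes, 5 Ctrl libraries stood at 0.801 to 2.19 and Ctrl 5 at 4.33, whereas 5 iKO libraries stood at 6.57 to 7.33 and iKO 1 at 4.13. Ctrl 5 and iKO 1 thus had similar leukocyte values, and their mean log2 CPM over the 10 melanosome genes was 9.48 and 9.54, against 9.48 to 9.51 in the other Ctrl libraries and 8.84 to 9.24 in the other iKO libraries. All 9 listed interferon-stimulated genes rose, next to 25% of all tested genes. On their mean log2 CPM iKO 1 (6.87) stood nearer to the other iKO libraries (7.37 to 7.62) than to Ctrl 5 (5.34) and the other Ctrl libraries (5.05 to 5.21). Within Ctrl the mean melanosome value was lowest in Ctrl 5 and Ctrl 2 (9.477 in each), and the other 4 stood at 9.480 to 9.512. Of the Ctrl libraries, Ctrl 5 had the most leukocyte RNA and Ctrl 2 the least (0.801). With the leukocyte value as a covariate, 0 of the 10 genes had a call, with log2 fold changes from -0.36 (Mlana) to 0.28 (Oca2) and SE of 0.12 to 0.25. Over all 16164 tested genes that fit called 1049 lower and 973 higher. At an unadjusted p under 0.05, 0 of the 10 were lower and 0 higher, and the share of all tested genes was not computed there. The covariate fit rests on Ctrl 5 and iKO 1, the libraries between the groups, and was not run without them. The part of leukocyte RNA in the fall was not tested.

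**Figure D3:**
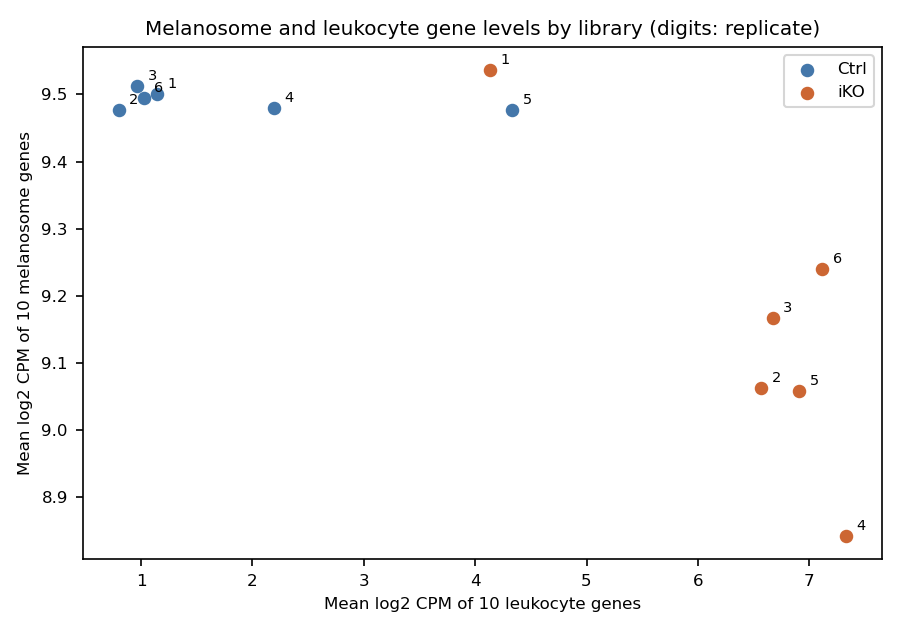
Mean log2 CPM of the 10 melanosome genes (y axis) against that of 10 leukocyte genes (x axis) in each library, with replicate numbers. Ctrl 5 and iKO 1 lie close to each other at leukocyte values of 4.33 and 4.13, and the other 5 iKO libraries lie lower right of all Ctrl libraries.

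Markers of other cells differed by list, next to 25% higher and 21.4% lower among all tested genes. Most tested genes of the leukocyte, macrophage, T cell and keratinocyte lists rose, whereas the other lists were mixed or held few tested genes. Of the leukocyte genes 9 of 10 rose, and the list summed to 304 to 488 CPM in Ctrl and 449.8 to 2083 in iKO, much of the Ctrl sum being Arhgdib (a mean of 248 CPM), which did not change by the test. Macrophage genes rose in 8 of 10 cases (22.8 to 478 CPM summed in Ctrl, 276 to 2107 in iKO) and T cell genes in 9 of 9 (3.74 to 8.87 and 14.6 to 150.9). Fibroblast genes rose in 2 of 9 cases and summed to 2393 to 2753 CPM in Ctrl (median 2574) but to between 633 and 15883 in iKO (median 2551). Endothelial genes gave 3 rises and 1 fall among 8 (49.9 to 54.5 CPM in Ctrl, 44.1 to 86.6 in iKO). All 5 measured of 8 keratinocyte genes rose (2.33 to 3.41 CPM in Ctrl with a median of 2.79, 5.45 to 196 in iKO with a median of 9.03). Of the Schwann cell genes 3 of 6 measured rose (286 to 309 and 218 to 361), and of the adipocyte and muscle genes 1 of 2 measured (2.28 to 3.37 and 1.49 to 40.1). No marker was at 0 in all 12 libraries, while Krt1, Adipoq and Mal had 0 counts in all Ctrl libraries. The part of these cells in the fall of the melanosome genes was not tested.

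The balance among the genes, which does not depend on library scaling, differed between the groups without overlap in the share of Pmel. Pmel made up 16.0% ± 0.355 of the counts of the 10 genes in Ctrl (15.5% to 16.5%) and 19.8% ± 1.44 in iKO (17.9% to 21.4%; SD, n = 6 each). The 2 groups did not overlap, iKO 1 included (18.2%). For each other gene the groups overlapped in this share. Dct made up 38.4% ± 1.38 in Ctrl and 35.8% ± 2.21 in iKO, Tyrp1 30.0% ± 1.59 and 29.7% ± 1.90, and Tyr 4.22% ± 0.245 and 3.82% ± 0.391. The ratio of Pmel to Dct counts, which uses the same Pmel counts, was 0.399 to 0.444 in Ctrl and 0.464 to 0.623 in iKO, without overlap. The groups overlapped in the ratio of Tyrp1 to Dct (0.676 to 0.838 in Ctrl, 0.678 to 0.957 in iKO). They also overlapped in that of Mlana to Pmel (0.151 to 0.197 in Ctrl, 0.103 to 0.162 in iKO). No test was run on these shares, and they show unequal change among the genes, not which of them changed.

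**Figure D4:**
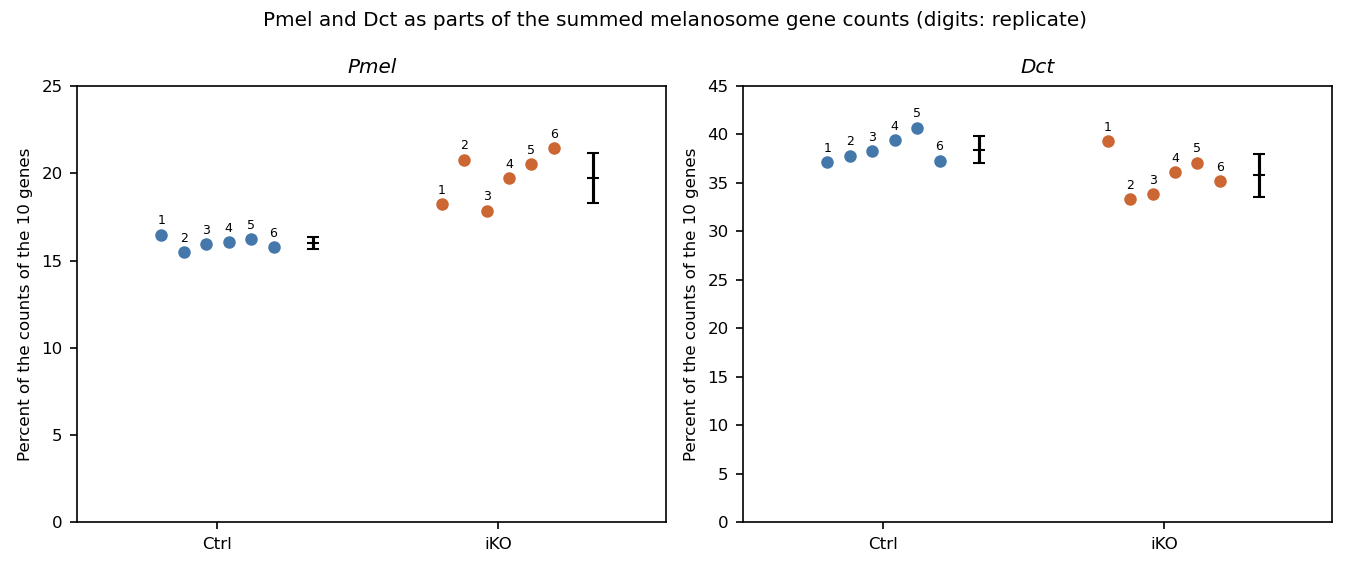
Pmel (left) and Dct (right) as a percent of the summed counts of the 10 genes (y axes, from 0) in each library, numbered by replicate, with mean ± SD. Pmel lies at 15.5% to 16.5% in Ctrl and at 17.9% to 21.4% in iKO, whereas the Dct points of the groups overlap.

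Per length of gene model, the genes spanned more than 2 orders of magnitude. These models run up to 14746 bases (Trpm1) and may differ in length from the transcripts present, which was not tested. In Ctrl the TMM-scaled CPM per kilobase of gene model, a level, was 2353 ± 129 for Tyrp1, 1549 ± 31.2 for Pmel, 1448 ± 52.9 for Dct, 981 ± 115 for Mlana and 378 ± 7.89 for Slc45a2 (SD, n = 6). It was 132 ± 7.48 for Tyr, 115 ± 7.52 for Slc24a5, 28.0 ± 0.763 for Trpm1, 20.1 ± 1.14 for Gpr143 and 16.3 ± 1.07 for Oca2. Tyrosinase RNA was thus well below that of both related enzymes. In Ctrl the ranges of neighbours in this order overlapped for Pmel and Dct and for Tyr and Slc24a5. In iKO the order of the means was the same, but Tyrp1 and Pmel (1846 ± 172 and 1521 ± 203), Dct and Mlana, Trpm1 and Gpr143, and Gpr143 and Oca2 overlapped too. The length of Mlana is 623 bases in the deposited table and 1057 exon bases in GENCODE M21, with which its level would be 578 in Ctrl and 423 in iKO, still between Dct and Slc45a2.

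The regulators of these genes were looked at as a list of 9 lineage factors and receptors, of which 3 fell, 2 rose and 4 had no call (median log2 fold change 0.11), next to 21.4% lower and 25% higher among all tested genes. The 3 that fell are transcription factors of the pigment lineage. Mitf averaged 841 ± 63.3 CPM in Ctrl and 618 ± 84.5 in iKO (SD over 6 libraries), a change of -0.44 ± 0.088 on the log2 scale (SE, edgeR adjusted p = 0.00114). Pax3 averaged 251 ± 9.13 and 205 ± 19.7 CPM (-0.29, edgeR adjusted p = 0.00221) and Sox10 571 ± 19.6 and 496 ± 26.0 CPM (-0.20, edgeR adjusted p = 0.00481). With the leukocyte covariate the log2 changes of the 3 were -0.10, -0.10 and -0.096, without a call. For each of the 3 the groups did not overlap, as for 11.1% of all tested genes with iKO lower. Unlike most of the melanosome genes, they were below every Ctrl library in iKO 1 too: Mitf was at 702 CPM there, against 714 in the lowest Ctrl library. Lef1, a factor that lymphocytes also express, averaged 0.298 ± 0.159 CPM in Ctrl and 1.23 ± 0.752 in iKO, a rise of 2.05 on the log2 scale (edgeR adjusted p = 0.00164, and 2.345 ± 1.07 SE without a call, adjusted p = 0.173, with the leukocyte covariate). Mc1r, the melanocortin receptor that stimulates pigment synthesis, was at 0.11 on the log2 scale (edgeR adjusted p = 0.266) and Kit, the receptor for stem cell factor, at -0.058 (edgeR adjusted p = 0.696). These 2 genes and Tfap2a, which rose by 0.24 (edgeR adjusted p = 0.0220), were named after their values were seen. The ratio of the summed counts of the 10 melanosome genes to those of the 9 lineage genes was 10.62 to 11.96 in Ctrl and 9.22 to 11.81 in iKO. The overlap came from iKO 1 alone, since the other 5 iKO libraries (9.22 to 10.51) lay below every Ctrl library.

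Of 9 other proteins of the melanosome or of pigment formation, 1 fell, 3 rose and 5 had no call (median log2 fold change 0.26), next to the same 21.4% and 25% of all tested genes. Mreg (melanoregulin), which bears on melanosome transfer, averaged 39.7 ± 2.32 CPM in Ctrl and 29.1 ± 4.58 in iKO (SD over 6 libraries) and fell by 0.45 on the log2 scale (edgeR adjusted p = 0.00168). Tpcn2, an ion channel of lysosomes and melanosomes, rose by 1.22 ± 0.17 (SE) and Mfsd12, a cysteine transporter of both organelles, by 1.07 ± 0.15 (both edgeR adjusted p = 0.000115). Gpnmb, a relative of Pmel that macrophages also express, rose from 5926 ± 119 to 7228 ± 1073 CPM (0.29, edgeR adjusted p = 0.0155, and 0.0706 without the filter on low counts). With the leukocyte covariate these 4 had no call, at log2 fold changes of -0.071 ± 0.17 for Mreg, 0.31 ± 0.28 for Tpcn2, 0.165 ± 0.26 for Mfsd12 and 0.23 ± 0.19 for Gpnmb (SE), the last close to its value without the covariate. The rises of Mfsd12, Tpcn2 and Gpnmb stood beside the rise of macrophage genes given above, whose part in them was not tested. In iKO 1 Mfsd12 and Tpcn2 were at 18.7 and 23.8 CPM, the lowest of the iKO libraries, whereas Gpnmb was at 7052 CPM, above the iKO minimum of 6064 and near the iKO mean.

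The machinery that builds and moves melanosomes, shared in part with lysosomes of other cells, showed no common direction. Of 24 genes 23 were tested, of which 4 fell, 5 rose and 14 had no call, with a median log2 fold change of 0.029. Rab38 (-0.37 ± 0.071 SE, edgeR adjusted p = 0.000907), a GTPase that carries Tyr and Tyrp1 to melanosomes, and Rab27a (-0.43 ± 0.10, adjusted p = 0.00428), which ties melanosomes to actin, fell. Bloc1s2, a subunit of the sorting complex BLOC-1, fell by 0.48 on the log2 scale (edgeR adjusted p = 0.00156). Lyst, a regulator of lysosome size that leukocytes also express, rose by 0.94 ± 0.15 (SE, edgeR adjusted p = 0.000355). With the leukocyte covariate Lyst (1.53) and Bloc1s2 (-0.79) had a call, and Rab38 (-0.35) and Rab27a (0.023) had none. Bloc1s1 was not tested, with 39 counts in Ctrl and 62 in iKO. The share of genes that fell in this list was 4 of 23 and the share that rose 5 of 23, next to 21.4% and 25% of all tested genes.

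**Figure D5:**
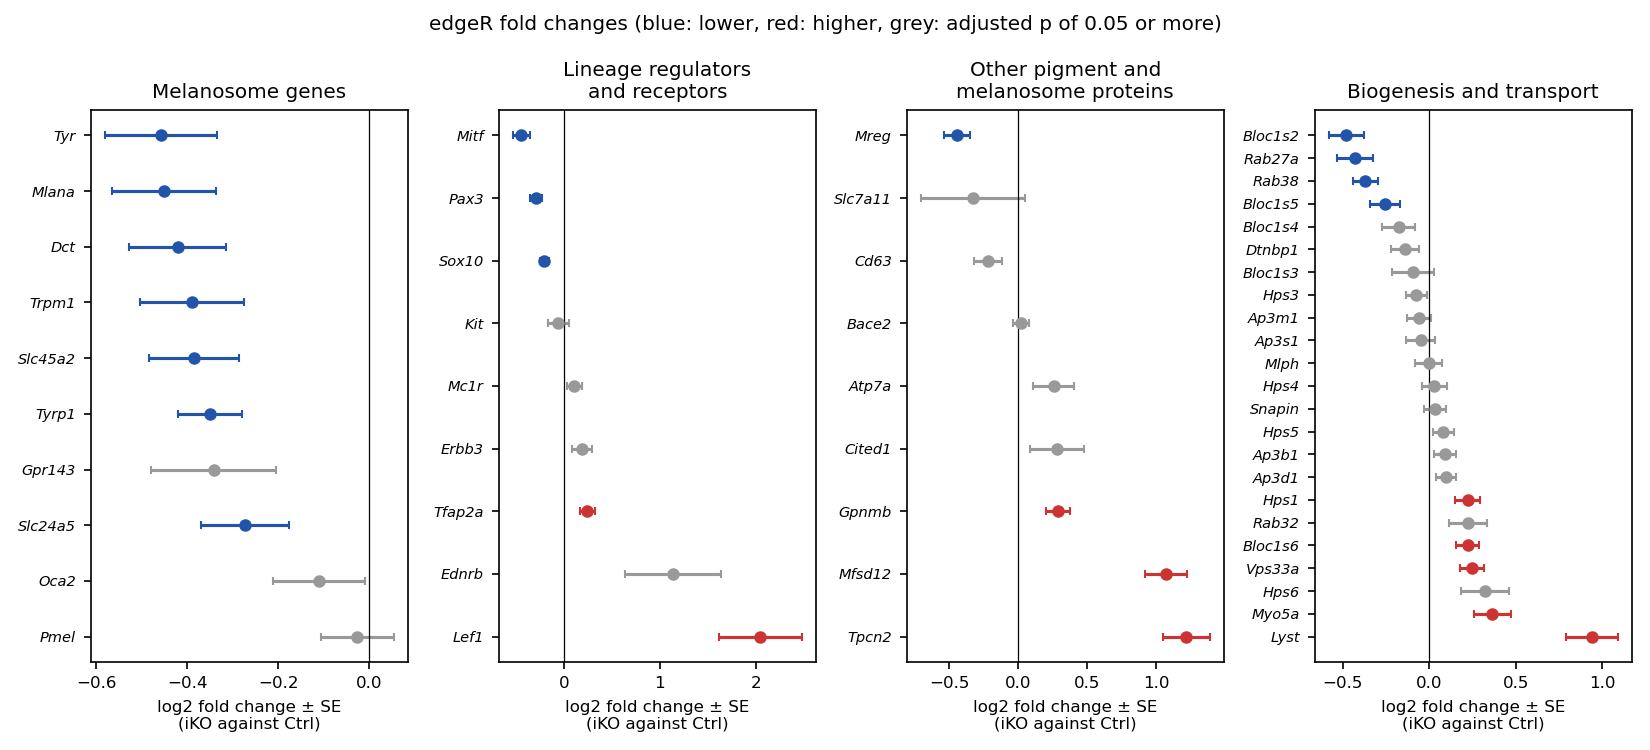
Log2 fold change ± SE (x axes, iKO against Ctrl, edgeR) of each tested gene of 4 lists, blue where lower, red where higher and grey where the adjusted p was 0.05 or more. In the left panel 7 of 10 melanosome genes are blue, Pmel lies nearest to 0, and the other panels hold both directions.

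Ligands of pigment cell receptors were scarce. Of 5 listed genes 3 were tested and 2 rose, next to 25% higher among all tested genes. Kitl, the ligand of Kit, averaged 2.18 ± 0.613 CPM in Ctrl and 7.89 ± 3.54 in iKO (SD over 6 libraries; 1.86 on the log2 scale, edgeR adjusted p = 0.000289). Edn1, an endothelin, averaged 0.415 ± 0.371 and 1.92 ± 1.06 CPM (2.22, edgeR adjusted p = 0.00896). Ctrl 5 was its highest Ctrl library (1.10 CPM) and iKO 1 its lowest iKO library (0.323 CPM), and the change was 2.82 without Ctrl 5 and 3.045 without both. With the leukocyte covariate neither had a call, and Edn1 was at -1.36. Edn3 had 19 counts in Ctrl and 0 in iKO and was not tested.

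Within groups the members varied together to different degrees. Taken as deviations from the group mean of log2 CPM over the 12 libraries, Pearson r of each gene with the mean of the other 9 was 0.98 for Slc45a2, 0.97 for Gpr143, 0.85 for Tyr, Oca2 and Slc24a5, 0.80 for Dct, 0.78 for Tyrp1, 0.72 for Pmel, 0.64 for Mlana and 0.63 for Trpm1. These values rest mainly on the iKO libraries, where the mean deviation ran from -0.31 in iKO 4 to 0.39 in iKO 1, against -0.014 to 0.022 in Ctrl, and all genes of a library share its scaling. By the same measure, the 5 genes most like the mean of the 10 among 12409 other protein-coding genes with a mean of at least 1 CPM were Laptm4b (r = 0.98), Clstn1 (0.97), Kank1 (0.965), Fkbp6 (0.96) and Mtus2 (0.95). Each of these fell, with log2 fold changes of -0.295, -0.34, -0.435, -0.51 and -0.37 (edgeR adjusted p of 0.0127, 0.00315, 0.00681, 0.0001 and 0.0191). Among all tested genes 21.4% fell. With the leukocyte covariate none of the 5 had a call, and 1049 of the 16164 tested genes were called lower. Without iKO 2 and iKO 3, Laptm4b (adjusted p = 0.0536) and Mtus2 (0.0673) had no call, nor had Mtus2 without Ctrl 3 (0.054).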

How the data were processed

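The authors deposited raw read counts by Ensembl gene, 1 column for each of 12 libraries, per the file headers; no normalization had been applied. The build, mm10, comes from the submitters' processing notes. Aligner, counter and strand setting: not given in the sources used here. Per the labels' protocols, RNA was selected with poly-T and the libraries were unstranded. Gene lengths and coordinates are those of the deposited table. Genes were filtered (edgeR filterByExpr, minimum count 10, minimum total 15), which kept 16164 genes with 99.9% of counts, and tested with edgeR 4.0.16 (quasi-likelihood, robust, TMM, group as the only term) in R 4.3.3, calling a gene at a Benjamini-Hochberg adjusted p under 0.05 over the whole tested table. The SE is the absolute log2 fold change over the square root of F. Log2 CPM used a prior count of 2. The script was tested on simulated data. No pair of libraries of a group was alike within sampling noise (chi-square per degree of freedom 7.47 or more in 30 pairs). Alternatives were DESeq2 1.42.0, limma 3.58.1 voom, other scalings, no filter, libraries left out, a replicate block and a leukocyte covariate. Named genes were the 10 members and, of each pathway list, up to 4 members past the threshold with the smallest p, plus the 5 genes most alike, Trex1, Ptprc and Pecam1; Mc1r, Kit, Tfap2a and the genes that share exons or are at 0 were added outside this rule. The members and lists were chosen with earlier results of these data known.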

Additional observations from a re-analysis of the deposited data

Results flagged for a closer look

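The groups of 6 libraries looked at were those of the members, the named pathway genes, the summed share and the ratio of Pmel to Dct. In 6 of these 52 groups the highest or lowest library lay far from the others. Chance gives about 1 in 20 for independent groups. These groups share the same libraries, so no excess over chance can be read from the count. Tyr was at 1011 CPM in iKO 1, the next iKO library being at 665 CPM, and at 837 CPM in Ctrl 5, the next Ctrl library being at 926 CPM. Slc24a5 was at 297 CPM in iKO 1, the next being at 229 CPM. The share of counts held by the 10 melanosome genes was 2.29% in iKO 1, the next being 1.78%. Mitf was at 714 CPM in Ctrl 5, the next being at 851 CPM, and Lef1 was at 2.71 CPM in iKO 2, the next being at 1.08 CPM. Of these 6 values 5 belong to Ctrl 5 or iKO 1.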

How the results depend on the processing

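Of the 10 melanosome genes, 6 to 8 were called lower in 20 of 21 alternatives, against 7 in the main fit, and 0 were called higher in any. The exception was the leukocyte covariate, with 0 lower, and it also left 2 lower and 3 higher genes of biogenesis and transport, 0 lower and 1 higher of the other pigment proteins, and 0 lower and 1 higher of the lineage list. Log2 fold changes then turned to 0.15 for Tyr, 0.12 for Pmel, 0.28 for Oca2, 0.24 for Slc24a5, 0.11 for Gpr143, 0.023 for Rab27a, -1.36 for Edn1, 0.035 for Kank1 and 0.13 for Mtus2, none with a call. Upper quartile scaling gave 3 higher in biogenesis and transport, 2 lower among the other pigment proteins and 1 higher in the lineage list; without the filter these numbers were 2, 2 and 1. Left out 1 at a time, libraries gave 1 to 3 lower among the other pigment proteins, 3 being without iKO 1, and 2 were lower without Ctrl 5 and iKO 1. Pmel ranged from -0.075 to 0.015 with 1 library left out and was 0.042 without iKO 2 and iKO 3, never with a call. Gpr143 was called in 7 of the alternatives. The cause was not tested. Over all genes, the covariate left 1049 lower and 973 higher, against 3464 and 4037. The difference in the share of counts (-0.489 percentage points) ranged from -0.596 to -0.438. Replicate numbers did not pair libraries (r of same-numbered deviations from -0.13 to 0.25, and 1 of 6 Ctrl libraries nearest to its own number); with a replicate block 8 members were lower, and 1 lineage gene was higher.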
